A study of Caenorhabditis elegans with 2 samples.

Results

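Small nucleolar RNA (snoRNA) genes were examined as binding loci of TBX-11, a T-box transcription factor, in early embryos of the nematode Caenorhabditis elegans. The annotation holds 346 nuclear snoRNA genes among 46890 nuclear genes, and 59 of them (17.1%, 95% Clopper-Pearson interval 13.2 to 21.4) were bound. A locus counted as bound when the summit of a peak, its point of highest signal, lay within 100 bp of the gene in the conservative peak list and no tRNA gene lay within 100 bp of that summit. Chromatin immunoprecipitation followed by sequencing (ChIP-seq) had been done in 1 group with 2 biological replicates. These were early embryos labelled 1 hour, obtained by bleaching, of strain OP368. The strain carries the integrated transgene wgIs368, a trimmed fosmid with tbx-11 fused to TY1, EGFP and 3xFLAG tags, together with an unc-119(+) rescue gene in the unc-119(tm4063) mutant background. The description of the samples names an anti-GFP antibody, while the antibody field names tbx-11. All values come from whole embryos, so the cells in which a locus was bound are not resolved, and the tagged protein is an added copy of the gene. No untagged strain, mock pull-down or other factor was analysed here, so what the peaks owe to TBX-11 itself was not tested.

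snoRNAs guide the chemical modification of ribosomal and spliceosomal RNA. Box C/D members direct 2′-O-methylation and box H/ACA members direct pseudouridylation. Many snoRNA genes lie in introns of protein-coding genes and are processed from the host transcript, while others have a promoter of their own. RNA polymerase III, which makes tRNAs and other short RNAs, often uses promoter elements called the A box and the B box, the landing sites of its initiation factor TFIIIC, and stops at a run of T in the non-template strand. T-box proteins bind DNA sites that share a short core.

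The DNA just upstream of 10 strongly bound loci is shown here because the summits lay in it. They were chosen to show loci with and without box matches, and not as a ranked list: 7 of the 10 have a match, against 29 of all 59 bound loci. Each stretch below runs from 80 bp upstream of the annotated start through the first 10 bases of the gene, 5′ to 3′ on the gene's strand, in assembly ce11, read from the RefSeq copy of the assembly. Capitals mark matches on that strand to the A box pattern TGGCNNAGT and the B box pattern GTTCNANNC. C51F7.3 (chrV:12303628-12303717, plus strand) has the strongest peak, with 2 B box matches, and W03C9.9 (chrII:11960818-11960907, plus strand) has the next strongest, with 1. T03F7.8 (chrV:11314178-11314267, plus strand), Y43F8C.22 (chrV:19643178-19643267, minus strand) and C04G6.12 (chrII:5105222-5105311, minus strand) have both boxes, the A box before the B box. T06C12.16 (chrV:15873917-15874006, minus strand) has an A box and F55A11.10 (chrV:11782912-11783001, plus strand) a B box. ZK994.7 (chrV:8500499-8500588, plus strand), D1046.6 (chrIV:8927185-8927274, plus strand) and F38E11.14 (chrIV:9477690-9477779, minus strand) match neither pattern as spelled. The A box pattern matched only 9.97% of nuclear tRNA genes, so the lack of a match does not show that a box is absent.
C51F7.3: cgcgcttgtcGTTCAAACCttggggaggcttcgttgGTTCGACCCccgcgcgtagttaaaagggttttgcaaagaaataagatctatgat
W03C9.9: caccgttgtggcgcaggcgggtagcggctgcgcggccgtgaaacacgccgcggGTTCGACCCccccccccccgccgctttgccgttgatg
T03F7.8: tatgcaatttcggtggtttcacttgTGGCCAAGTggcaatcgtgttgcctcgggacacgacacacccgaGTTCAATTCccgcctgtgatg
Y43F8C.22: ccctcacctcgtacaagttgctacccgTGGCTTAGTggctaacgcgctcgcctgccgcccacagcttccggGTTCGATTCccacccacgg
C04G6.12: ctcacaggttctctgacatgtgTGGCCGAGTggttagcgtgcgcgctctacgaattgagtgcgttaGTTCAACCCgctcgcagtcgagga
T06C12.16: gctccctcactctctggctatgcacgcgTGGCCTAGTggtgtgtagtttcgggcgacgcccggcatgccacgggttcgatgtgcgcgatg
F55A11.10: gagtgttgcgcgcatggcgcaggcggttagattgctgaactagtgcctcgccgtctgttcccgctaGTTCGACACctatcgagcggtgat
ZK994.7: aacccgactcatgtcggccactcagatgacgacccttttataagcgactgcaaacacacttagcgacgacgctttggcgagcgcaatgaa
D1046.6: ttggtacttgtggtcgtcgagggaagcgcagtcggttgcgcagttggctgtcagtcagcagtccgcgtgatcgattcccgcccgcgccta
F38E11.14: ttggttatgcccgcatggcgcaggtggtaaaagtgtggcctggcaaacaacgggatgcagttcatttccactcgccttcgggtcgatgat

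The gene bodies of 3 of these loci, with the 30 bp that follow them, show where they end. The first run of at least 4 T after the annotated end is in capitals. C51F7.3 (chrV:12303708-12303813, plus strand) and W03C9.9 (chrII:11960898-11960989, plus strand) carry both a box C near the 5′ end and a box D near the 3′ end. C04G6.12 (chrII:5105127-5105231, minus strand) fell in neither of the sequence classes defined further on.
C51F7.3: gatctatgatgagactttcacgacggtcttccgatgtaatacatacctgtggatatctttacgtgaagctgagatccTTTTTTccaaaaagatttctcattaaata
W03C9.9: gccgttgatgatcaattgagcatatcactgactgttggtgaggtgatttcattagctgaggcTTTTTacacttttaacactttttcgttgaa
C04G6.12: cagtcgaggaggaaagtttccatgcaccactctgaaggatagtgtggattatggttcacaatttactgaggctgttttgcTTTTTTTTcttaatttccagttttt

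The bound share of snoRNA genes was read against other genes by the same rule. Of all nuclear genes, 481 (1.03%) had a summit under the rule. Of 8441 nuclear non-coding genes of 50 to 400 bp that are neither snoRNA nor tRNA genes, 120 (1.42%) did. Replicate 1 alone gave 52 bound snoRNA loci (15.03%, 11.4 to 19.2), against 0.936% of those other non-coding genes. Replicate 2 alone gave 48 (13.9%, 10.4 to 18.0), against 0.77%. The snoRNA share was thus above both backgrounds in the pooled list and above the small-gene background in each replicate list. Intervals cover counting error over loci only, and loci are not replicates of a condition.

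Most bound loci were found in both replicates. Of the 59 loci, 47 were bound in the list of each replicate, 4 in replicate 1 only, 1 in replicate 2 only and 7 in neither list. The 4 were ZK546.18, F39B2.14, R12E2.17 and ZK20.9, and the 1 was C17D12.8. The 7 were C53B7.8, H04D03.5, C36E8.11, D2021.6, T26A8.6, C18D1.21 and K02F6.11, with pooled signals from 68.3 to 98.0, and each of them had a candidate peak in the ranked lists of both replicates. C16D9.11 was bound in replicate 1 and not in the conservative pooled list, and no locus was so in replicate 2.

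Signal was the authors' own strength value per peak, on a scale that the sources used here do not state, and it was compared within a list. Across the 47 loci bound in both replicates signal was ordered similarly in the 2 lists (Spearman's rho 0.912, and 0.908 for Pearson's r of the log2 values). These are descriptions, without a test, because both lists were called against the same control alignments and neighbouring loci can share a peak. The 47 loci were also selected for passing the threshold in both lists, so they do not describe agreement over all loci. Replicate 1 gave the higher value at 41 of the 47 loci, with a median ratio of 1.31 (range 0.816 to 2.56), though how each list was scaled is not stated. The summits of the replicates lay a median of 12 bp apart (range 0 to 96).

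**Figure D1:**
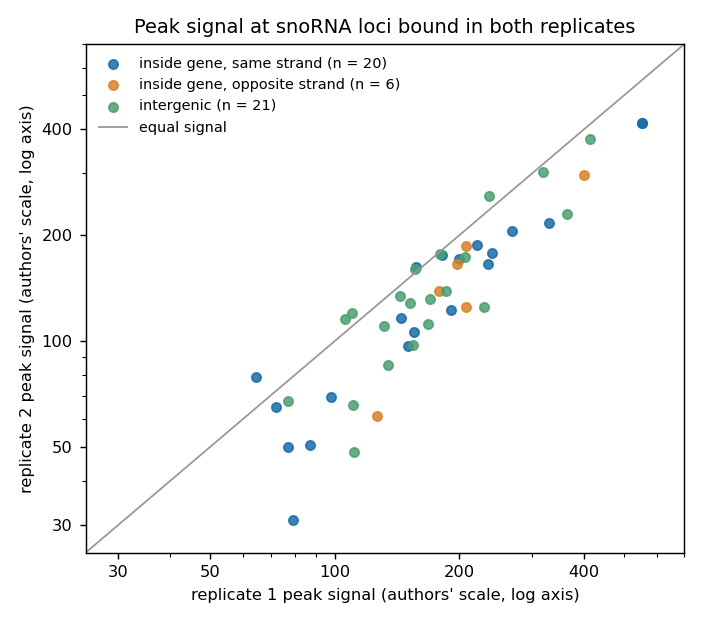
Peak signal of each snoRNA locus bound in both replicate lists, replicate 1 on the horizontal and replicate 2 on the vertical log axis, coloured by position relative to protein-coding genes (20 same-strand, 6 opposite-strand and 21 intergenic loci). Most points lie below the line of equal signal, 41 of 47, and the 2 loci at the top right share 1 peak in frm-7.

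The 59 loci held 60 distinct peaks. One peak served C51F7.3 and C51F7.4, while K02C4.8 had peaks with signals of 147 and 38.9, and H04D03.5 had peaks with signals of 94.3 and 17.1. The median signal of the 60 peaks was 257 (quartiles 128 and 366, range 17.1 to 973), against 103 over all 882 nuclear peaks of the list. It was 155 against 80.5 in replicate 1 and 128 against 69.9 in replicate 2. Of the 60 peaks, 50 were at or above the list median. snoRNA peaks made up 8 of the 15 strongest and 32 of the 100 strongest peaks of the list.

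The strongest peak of the whole list lay at C51F7.3, a snoRNA gene with box C and box D sequences, and its neighbour C51F7.4, both on the strand of frm-7, which encodes a FERM domain protein. C51F7.3 spans 12303708 to 12303783 of chromosome V and lies in an intron, while C51F7.4 spans 12303599 to 12303693 and does not lie wholly within one. Their shared peak had a signal of 973 in the pooled list, 554 in replicate 1 and 416 in replicate 2. The summit lay 68 bp upstream of C51F7.3 and 41 bp past the start of C51F7.4, inside it. The 2 B box matches upstream of C51F7.3 lie inside C51F7.4, starting 39 and 65 bp past its start. frm-7 was the only one of 24 host genes with at least 2 snoRNA loci in which more than 1 was bound.

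Among loci inside a gene on the same strand, ZK994.7, in an intron of the peroxidasin gene pxn-1, came next with signals of 547 pooled, 329 in replicate 1 and 217 in replicate 2. Its summit lay 8 bp upstream of the start, nearer than at most bound loci. Y43F8C.22, in an intron of Y43F8C.7, had 464 pooled, 269 in replicate 1 and 206 in replicate 2. F55A11.10, a locus with box C and box D sequences in an intron of F55A11.6, had 425, 240 and 178 in the same lists. These loci were high in both replicates.

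The same-strand loci with H/ACA ends included D1046.6, in an intron of cfim-2, whose product is a subunit of the pre-mRNA cleavage factor Im, with 422 pooled, 221 in replicate 1 and 187 in replicate 2. C10C6.8, in an intron of the cation-transporting ATPase gene catp-8, had 377 pooled, 199 in replicate 1 and 171 in replicate 2. F38E11.14, in an intron of the cyclic nucleotide-gated channel gene cng-3, had 413, 235.2 and 165 and fell in neither sequence class. The summits of these 3 loci lay 55, 62 and 59 bp upstream of the start.

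The loci with the strongest peaks on the opposite strand of a gene were T03F7.8, C04G6.12 and B0334.12. T03F7.8, in an intron of the cuticlin-like gene cutl-18 (chromosome V, 11314258 to 11314332), had signals of 704 pooled, 401 in replicate 1 and 297 in replicate 2, with the summit 42 bp upstream. C04G6.12, in an intron of the mitogen-activated protein kinase gene mpk-2 (chromosome II, 5105157 to 5105231), had 399.7 pooled, 207 in replicate 1 and 186 in replicate 2, with the summit 35 bp upstream. An opposite-strand snoRNA is not part of the host transcript as annotated. B0334.12, in an intron of the potassium channel gene twk-5 (chromosome II, 11484683 to 11484752), had 373 pooled, 197 in replicate 1 and 165 in replicate 2.

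B0334.12 was the only bound locus whose strongest peak had its summit past the end of the gene, 74 bp beyond it at position 11484826 in the pooled list. The sequence after its end is shown because it differs from that of the other loci in where the boxes stand. Neither box matched upstream of B0334.12. In the 100 bp after its end, read on the opposite strand (chrII:11484753-11484852, minus strand), both did, as the capitals mark, with first bases 44 bp apart and the summit 12 bp from the first base of the A box. The stretch also holds the T-box core pattern directly after the A box. The annotation has no other gene than twk-5 there. A stretch of this kind was looked for only after the position of the summit was known.
B0334.12: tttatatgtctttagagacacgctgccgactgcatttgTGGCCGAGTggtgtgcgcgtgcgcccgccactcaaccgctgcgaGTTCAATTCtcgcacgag

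Among intergenic loci, W03C9.9 on chromosome II (11960898 to 11960959) led with signals of 788 pooled, 415 in replicate 1 and 374 in replicate 2. ZK265.10 had 614 pooled, 318 in replicate 1 and 303 in replicate 2. T06C12.16 had 602 pooled, 363 in replicate 1 and 229 in replicate 2. T02E1.9 had 482, 236 and 259 in the same lists, and T27A3.9 had 388, 206 and 174. The summits of these 5 loci lay 59, 55, 49, 49 and 53 bp upstream. T02E1.9 was the one of these 5 at which replicate 2 gave the higher value.

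The share of bound loci was compared by position. On the strand of a protein-coding gene that contains them, 23 of 183 loci were bound (12.6%, 8.14 to 18.3). On the opposite strand of such a gene 9 of 33 were bound (27.3%, 13.3 to 45.5), and of intergenic loci 27 of 130 (20.8%, 14.2 to 28.8). Replicate 1 gave 13.1%, 18.2% and 16.9% for these 3 classes in the same order, and replicate 2 gave 10.9%, 21.2% and 16.2%. The same-strand share was the lowest in all 3 lists, but the 3 intervals overlap. With the summit required within 50 bp, the shares were 4.92% (2.27 to 9.13) on the same strand, 15.2% (5.11 to 31.9) on the opposite strand and 15.4% (9.66 to 22.8) between genes. The same-strand and intergenic intervals then no longer overlapped. That cut falls between the median summit distances of 55 bp on the same strand and 47 bp between genes. It kept 9 of the 23 bound same-strand loci and 20 of the 27 bound intergenic ones, so it also sorts loci by summit distance. Within 200 bp the same-strand and intergenic shares were 13.1% and 20.8%. The strongest peak per bound locus had a median of 261 on the same strand, 319.5 on the opposite strand and 254 between genes.

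**Figure D2:**
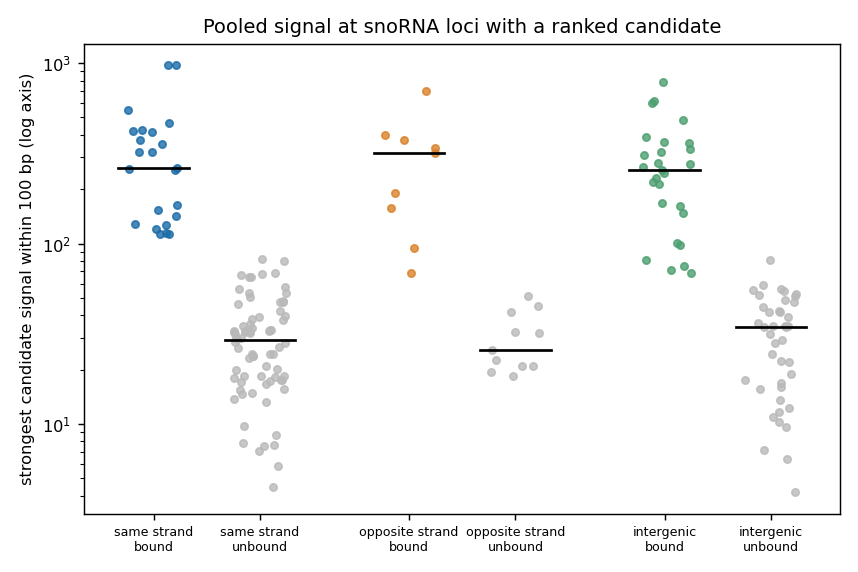
Signal of the strongest candidate peak within 100 bp of each snoRNA locus in the conservative ranked list (log axis), for bound and unbound loci of each position class, with black lines at the medians. The medians of bound loci lie at 261, 319.5 and 254 for same-strand, opposite-strand and intergenic loci, and those of unbound loci with a candidate at 29.1, 25.7 and 34.4. Bound loci are those whose candidate passed the threshold, so the gap between bound and unbound loci follows at least in part from that definition.

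Position within the host was also described. Of loci wholly inside an intron of a same-strand gene 21 of 150 were bound (14.0%, 8.88 to 20.6), and of same-strand loci not wholly inside an intron 2 of 33 (6.06%, 0.743 to 20.2). The 2 were C51F7.4 and F39B2.14, which lies inside tmem-107. The 21 bound intronic loci lay in introns with a median length of 284 bp and ended a median of 50 bp before the 3′ end of the intron. The 129 unbound ones lay in introns with a median of 419 bp and ended 137 bp before it. The distance from the 5′ end of the intron had medians of 148 bp and 128 bp in bound and unbound loci. The interquartile ranges overlapped for all 3 measures, at 270 to 467 bp in bound and 229 to 2204 bp in unbound loci for intron length, for example.

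Ribosomal protein genes are common hosts of snoRNAs in animals. Cytosolic ones were recognised only by names that begin with rpl- or rps-, so any named otherwise count among the other hosts. Of 19 same-strand loci in cytosolic ribosomal protein genes, none was bound, which allows a share of up to 17.6%, against 23 of 164 loci in other same-strand hosts (14.0%, 9.10 to 20.3). The count for ribosomal protein hosts was also 0 in the list of each replicate and in the other pooled list. The interval for the 19 loci includes the share of the other hosts. The 31 host genes of bound loci, on either strand, included 1 with a further locus that was not bound, the gene pdl-1, where C27H5.9 had a signal of 319.5 and C27H5.10 had no candidate peak.

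Bound loci were found on all 6 nuclear chromosomes. They made up 14 of 74 loci on chromosome I, 15 of 71 on II, 7 of 54 on III, 10 of 59 on IV, 11 of 55 on V and 2 of 33 on X. The share on X was 6.06% (0.743 to 20.2), and its interval includes the share over all chromosomes. The 2 bound loci on X, C53B7.8 and D2021.6, were both in the group found in neither replicate list, with pooled signals of 98.0 and 75.4.

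Where a locus had 2 peaks, the stronger one was used for its summit position. At 57 of 59 bound loci this summit lay 1 to 100 bp upstream of the annotated start, and at 48 it lay 25 to 75 bp upstream. The rule admits a summit within 100 bp of either end or inside the gene, so it does not fix the side. The median distance was 48 bp upstream (quartiles 34.5 and 58), with 55 bp in same-strand, 48 bp in opposite-strand and 47 bp in intergenic loci. The summits of the strongest peaks at intergenic loci lay 1 to 59 bp upstream. The weaker second peaks lay past the end of the gene, by 17 bp at the intergenic K02C4.8 and by 5 bp at the opposite-strand H04D03.5. Replicate 1 gave a median of 44.5 bp, with 46 of 52 summits upstream, and replicate 2 gave 51 bp, with 45 of 48 upstream. The starts are annotation starts, so an error in an annotated end moves these distances.

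The loci just inside the window were F39B2.14, with a summit 96 bp away and a signal of 115, M106.6, with 91 bp and 324, and C18D1.21, with 90 bp and 69.0. Just outside, beyond 100 bp and up to 300 bp, stood 3 unbound loci. Y49E10.36, in the histone H3.3 gene his-72, had its nearest summit at 200 bp with a signal of 58.4. F54E7.10, in the ribosomal protein gene rps-12, had one at 242 bp with 72.2, and the intergenic Y17G7B.25 had one at 296 bp with 100.3. No locus had its nearest summit more than 96 and less than 200 bp away, and a limit of 200 bp adds Y49E10.36, for 60 bound loci.

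**Figure D3:**
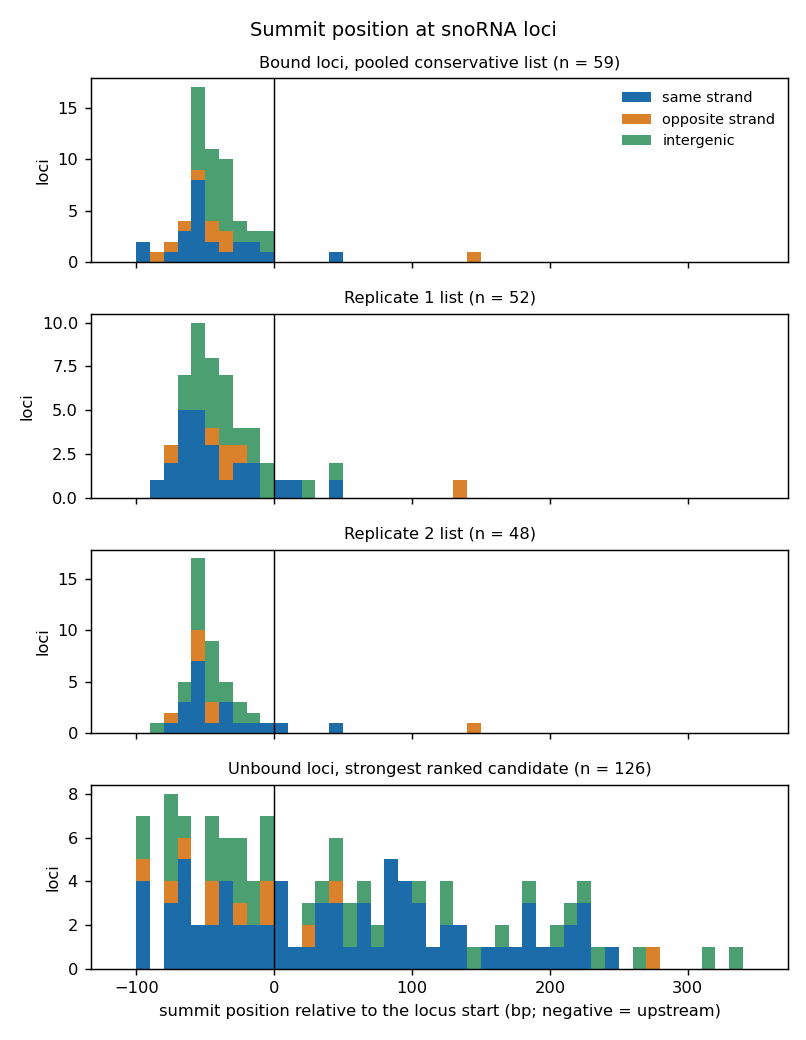
Number of snoRNA loci by position of the summit of the strongest peak relative to the annotated start (bp, negative is upstream), for bound loci in the pooled list, for the list of each replicate, and for the strongest ranked candidate at unbound loci, coloured by position class. These summits of bound loci gather upstream of the start with a median of 48 bp upstream, while candidates at unbound loci spread over both sides with a median 30.5 bp past the start.

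Unbound loci were followed into the ranked list, which also holds candidates below the threshold. Of 346 loci, 185 (53.5%, 48.1 to 58.8) had a candidate summit within 100 bp, against 37.1% of the other non-coding genes of 50 to 400 bp. The 185 include all 59 bound loci, because this ranked list holds every peak of the conservative list. Part of the excess over the other genes is therefore that of the bound loci. Of 287 unbound loci, 126 had a candidate and 161 had none, and no background of unbound genes was counted for them. Candidates at unbound loci had a median signal of 29.7 (range 4.17 to 81.9). Their scores, which express how reproducibly a peak ranked, had a median of 81 and reached 827, and no unbound locus had one of 830, the lowest score of the thresholded lists. A candidate that passed the threshold would have made its locus bound, so the lower scores and signals follow at least in part from the definition. Their summits lay upstream in 54, inside in 44 and past the end in 28 loci. An upstream summit was thus found at 54 of 126 of these loci, against 57 of 59 bound loci.

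The unbound loci with the strongest candidates were C14C10.8, in ril-2, with a signal of 81.9 and a score of 827, and the intergenic F25H2.15, with 81.3 and 333. C16D9.11, in rol-3, had 79.7 and 430, F56C9.12, in the protein phosphatase 1 gene gsp-2, had 69.0 and 780, and F25H5.9, in the pyruvate kinase gene pyk-1, had 67.4 and 697. F25H2.15, C16D9.11 and F56C9.12 were bound in the other pooled thresholded list, which held 59 bound loci, 56 of them shared with the conservative list. The weakest bound loci, K02F6.11 at 68.3, C18D1.21 at 69.0 and T26A8.6 at 71.2, overlapped these candidates in signal.

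Sequence features that the rule had not used were then counted in the 100 bp upstream of each locus, on both strands. A match that crosses the annotated start was not counted. The B box pattern GTTCNANNC was present at 24 of 59 bound loci (40.7%, 28.1 to 54.3), against 11 of 287 unbound loci (3.83%) and 2.46% of 19973 protein-coding genes. The A box pattern TGGCNNAGT was present at 13 bound loci (22.0%, 12.3 to 34.7), against 7 unbound loci (2.44%) and 0.466% of protein-coding genes. Both were present at 8 bound loci (13.6%), against 1 unbound locus (0.348%) and 3 protein-coding genes (0.0150%). The loci bound in replicate 1 had the B box in 42.3% and the A box in 23.1%, and the 48 bound in replicate 2 had them at 21 and 12 loci. The intervals of bound and unbound loci did not overlap for either box. The rule had already set aside summits near annotated tRNA genes, so these matches are not at annotated tRNA genes that lie within 100 bp of the summit.

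The boxes stood in a narrow range of places. All 13 A box matches and all 25 B box matches at bound loci read on the strand of the snoRNA gene. The first base of the A box lay 52 to 75 bp upstream of the start, with a median of 58 bp, and that of the B box lay a median of 14 bp upstream, with 23 of 25 matches between 9 and 27 bp. In the 8 bound loci with both, the first bases were 43 to 45 bp apart. In tRNA genes, where the boxes lie inside the gene, the distance was 44 to 94 bp with a median of 54 bp over the 48 genes with exactly 1 match to each pattern. The letters for the B box matched 95.9% of the 612 nuclear tRNA genes and those for the A box 9.97%, so the A box pattern is a strict one. Summits lay a median of 13 bp downstream of the first base of the A box and 31 bp upstream of that of the B box.

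**Figure D4:**
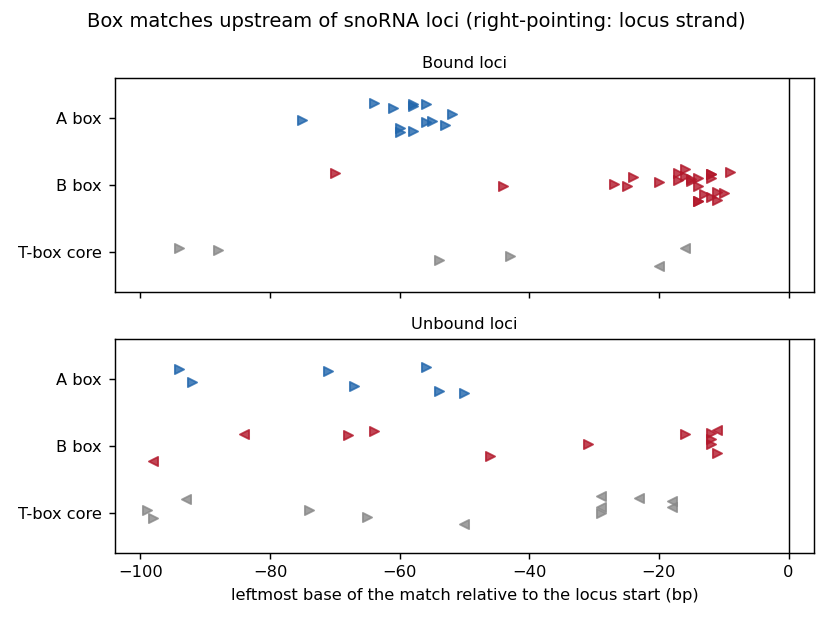
Position of each A box, B box and T-box core match in the 100 bp upstream of the annotated start (bp), for bound loci above and unbound loci below, with right-pointing marks for matches on the gene's strand and left-pointing ones for the opposite strand. Marks are spread vertically only for legibility. At bound loci A boxes cluster around 58 bp and B boxes around 14 bp upstream, all on the gene's strand.

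The boxes were found upstream rather than within or after the bound genes. Inside the gene, 0 of 59 bound loci held the A box and 2 held the B box (C51F7.4 and T03F7.8), against 5 and 20 of 287 unbound loci. In the 100 bp after the end, 1 bound locus held the A box (B0334.12) and 2 held the B box (B0334.12 and K02C4.8), against 1 and 9 unbound loci. The intervals of bound and unbound loci overlapped for each of these shares.

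Read the other way, loci with a box were more often bound than loci without one. Of 35 loci with the B box upstream 24 were bound (68.6%, 50.7 to 83.1), of 20 with the A box 13 (65.0%, 40.8 to 84.6), and of 9 with both 8 (88.9%, 51.8 to 99.7). Of the 300 loci with neither box 30 were bound (10%, 6.85 to 14.0), so the boxes as spelled mark 29 of the 59 bound loci. Distinct peaks at loci with the B box had a median signal of 276, against 205 at loci without it, in the pooled list. The medians were 157 against 155 in replicate 1 and 139 against 122 in replicate 2, so replicate 1 alone hardly differed. In each list the peak shared by C51F7.3 and C51F7.4 counts in both groups, because only C51F7.3 has the match upstream. Among bound loci the B box was present at 8 of 23 same-strand, 4 of 9 opposite-strand and 12 of 27 intergenic loci, and the A box at 6, 4 and 3 of them.

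The pattern of a T-box core, GGTGTG, was scarcer. It was present upstream of 6 of 59 bound loci (10.2%, 3.82 to 20.8), against 11 of 287 unbound loci (3.83%, 1.93 to 6.75) and 2.31% of protein-coding genes. The intervals of bound and unbound loci overlap. The 6 loci were C51F7.3, T03F7.8, T06C12.16, C17D12.8, F11A10.9 and D2021.6, of which the first 3 are among the strongest bound loci. The core read on the gene's strand at 4 of them and on the opposite strand at 2, and no match overlapped an A or B box match. At T06C12.16 the core began 43 bp upstream, directly after the A box match that began at 52 bp. The lack of overlap there depends on where the A box pattern was taken to end.

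A run of 4 T within 30 bp after the end of the gene, on its strand, was present at 48 of 59 bound loci (81.4%, 69.1 to 90.3), against 135 of 287 unbound loci (47.0%, 41.1 to 53.0). It was present in 36.1% of all 30 bp windows of the nuclear genome and after 49.4% of protein-coding genes, so the unbound loci were near these backgrounds and the bound loci above them. Among bound loci it followed 22 of 23 on the same strand, 6 of 9 on the opposite strand and 20 of 27 between genes. Among unbound loci it followed 84 of 160, 14 of 24 and 37 of 103 in the same order. The intervals of bound and unbound loci overlap on the opposite strand only. The distance to the 3′ end of a same-strand intron had a lower quartile of 28 bp in bound and 50 bp in unbound loci. The 30 bp window can thus reach the end of the intron, and whether a run belongs to that end was not tested. Of loci with a box upstream and the run after the end, 27 of 39 were bound (69.2%, 52.4 to 83.0). Of loci with neither a box nor the run, 9 of 156 were (5.77%, 2.67 to 10.7).

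Bound genes were also shorter. Their median length was 95 bp, against 132 bp in unbound loci, and 30 of 59 (50.8%, 37.5 to 64.1) were at most 100 bp long, against 65 of 287 (22.6%, 17.9 to 27.9). Peaks at genes of at most 100 bp had a median signal of 339, against 147 at longer ones. Length, boxes and T run all differed between bound and unbound loci, and the part of each in the bound share was not tested.

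**Figure D5:**
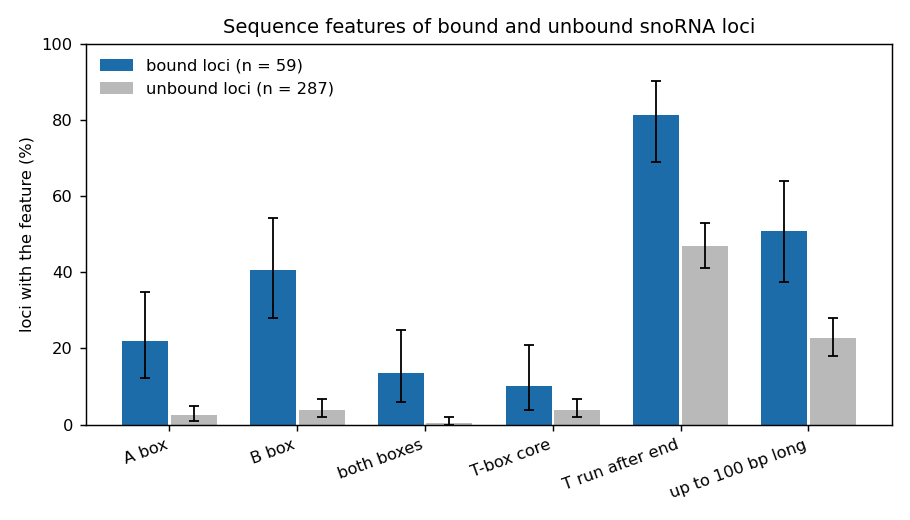
Percent of bound and unbound snoRNA loci with each feature, with 95% Clopper-Pearson intervals as error bars (59 bound and 287 unbound loci). The bars for bound loci are higher for all 6 features, from 10.2% against 3.83% for the T-box core to 81.4% against 47.0% for the T run, and the intervals overlap for the T-box core.

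The guide classes were assigned by letters alone. Box C/D required TGATGA in the first 20 bases and CTGA in the last 20, and H/ACA required ACA in the last 10 bases. Of bound loci 5 of 59 met the rule for box C/D and 22 (37.3%, 25.04 to 50.9) that for H/ACA, against 9 and 78 (27.2%, 22.1 to 32.7) of 287 unbound loci. The remaining 32 bound and 200 unbound loci met neither, so most loci carry no class by these letters. The intervals of bound and unbound loci overlap for H/ACA. The annotation also files smy-2 and smy-3, genes for SmY RNAs of the trans-splicing machinery, as snoRNA, and neither was bound. In the conservative ranked list smy-3 had a candidate with a signal of 58.7 and a score of 383, and smy-2 had none. In the other pooled ranked list smy-2 had one of 73.3, 59 bp upstream, and in the ranked list of replicate 1 one of 49.8, 61 bp upstream.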

How the data were processed

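ChIP-seq of tagged TBX-11 had been done in early embryos in 2 biological replicates, and peak lists on assembly ce11 were used. Per the deposited file descriptions, replicate lists derive from the alignments of 1 replicate and pooled lists from those of both, with shared control alignments throughout. For the aligner, the peak caller and their versions, details are not given in the sources used here. Each deposited signal is the authors' strength value per peak, with no stated scale. The deposited score expresses reproducibility (irreproducible discovery rate), and all thresholded peaks scored at least 830. The authors' summit offset gave the summit. The conservative ranked list was taken as the pooled ranked list that holds every conservative thresholded peak. Over both pooled ranked lists, 16 columns from unnamed sub-analyses were left aside. Library depth is unknown because peak lists hold no counts of reads, and intervals cover counting error only. After mitochondrial peaks were left out, the lists held 882 (conservative), 1042 (other pooled), 546 (replicate 1) and 467 (replicate 2) peaks.

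Genes came from Ensembl release 115 and sequence from RefSeq (WBcel235, the same assembly). A locus was same-strand or opposite-strand when wholly inside a protein-coding gene, and same-strand when inside genes on both strands. With 1 group no contrast between conditions exists, and no test was run. Shares carry Clopper-Pearson 95% intervals (Python 3.11.15, scipy 1.17.1). The counting was tested on simulated data. Alternatives were other lists, windows, position calls, patterns and each replicate alone, of which pattern mismatches, strand limits and T run windows were added after seeing the data. Loci named were the 15 strongest bound, the 3 strongest per position class, those just outside the window, the 5 strongest unbound candidates and hosts with several bound loci. Those named otherwise, among them small counts and loci shown for their sequence, were chosen after their values were seen. Members and lists were chosen with earlier results of these data known.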

Additional observations from a re-analysis of the deposited data

How the results depend on the processing

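Of 81 alternative values, 64 stayed within the replicate spread, counting interval or 1.5-fold range of the reported value, and 17 did not. The count of bound loci, 59 as reported, was 34 with the summit within 50 bp and 1 with it inside the gene. The inside rule left same-strand, opposite-strand and intergenic shares of 0.546%, 0% and 0%, a median signal of 973 and a median distance of -41 bp. The 50 bp rule gave a same-strand share of 4.92%, against 15.2% on the opposite strand and 15.4% between genes, a median distance of 36 bp and 17 loci bound in both replicates (47 as reported). Both rules admit fewer loci and also select them by where the summit lies, so these shifts follow at least in part from the rules. Median signal was 295 with peaks at or above the list median, and 128 to 155 in single replicates. One mismatch raised the B box share to 74.6% of bound loci, against 57.5% of unbound loci and 48.3% of protein-coding genes, and the A box share to 67.8%, against 20.9% and 11.5%. The A box share was 0% within 50 bp, where none begins. A 10 bp window gave the T run after 55.9% of bound and 19.5% of unbound loci. No paired analysis was possible because there is 1 group only. Unknown depth, annotated gene ends and 2 replicates limit these values.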

Other observations

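Loci with the features of the bound set but no peak were listed, chosen after their values were seen. Of 287 unbound snoRNA loci, 12 had an A or B box upstream and the T run after the end. Of these, 6 had a candidate peak in the conservative ranked list. C14C10.8 in ril-2 had an A box 67 bp upstream and a signal of 81.9, F25H5.9 in pyk-1 had a B box 12 bp upstream and 67.4, and R166.7 in the kinase gene mnk-1 had an A box 50 bp upstream and 67.3. The 3 such loci on X, F19G12.14, Y59E1B.14 and T27A8.9, had no candidate in that list, though Y59E1B.14 had one in the other pooled ranked list. Y59E1B.14, an intergenic locus, was the 1 unbound locus with both boxes wholly upstream of the start. They stood at 56 and 12 bp upstream, within the range of the bound loci.

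The sequences of C14C10.8 (chrV:12596968-12597057, minus strand) and R166.7 (chrII:10545320-10545409, minus strand) are shown as unbound loci with an A box in capitals. At R166.7 the letters gttcaattc, which cross the annotated start, also match the B box pattern. They were not counted or capitalised, because only bases upstream of the start were searched. K11H12.13 (chrIV:654352-654441, minus strand), in the ribosomal protein gene rpl-15, is shown as an unbound locus without a match to either box pattern. All run from 80 bp upstream through the first 10 bases.
C14C10.8: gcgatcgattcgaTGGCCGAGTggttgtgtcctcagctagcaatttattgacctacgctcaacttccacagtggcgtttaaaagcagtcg
R166.7: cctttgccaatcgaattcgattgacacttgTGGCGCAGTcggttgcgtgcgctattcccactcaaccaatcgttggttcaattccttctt
K11H12.13: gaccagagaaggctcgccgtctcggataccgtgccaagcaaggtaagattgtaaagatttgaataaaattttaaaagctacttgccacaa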
